A study of Sus scrofa domesticus with 6 samples.

Results

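The glutathione and antioxidant enzymes are the proteins that remove superoxide, hydrogen peroxide and lipid peroxides and that keep cellular thiols reduced. Members were taken by gene symbol from the deposited gene table: the glutathione peroxidases, the glutathione transferases of the alpha, mu, omega, pi, theta and kappa classes, the membrane transferases and the peroxiredoxins by the start of the symbol, and 17 further genes by name. A row was kept when its reads summed over all libraries reached 50. The rule matched 39 rows and kept 37 of the 30352 named genes. GPX5 and GPX6 matched but had 0 reads in every library, and the member with the fewest reads, GPX8, had 3119. The rule used gene symbols and total reads, not a difference between groups.

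The table came from bulk RNA sequencing of small intestine from 6 Gottingen minipigs, all wild type and aged 6 months, 2 animals in each of 3 groups. Irradiated and treated animals (IR_Pra) received 15 Gy of 60Co gamma rays to the abdomen and 40 mg of oral pravastatin per day, in divided doses, over 2 weeks. Irradiated animals (IR) received the same abdominal exposure without the drug, and control animals are labelled control only. Tissue was collected on day 14. Pravastatin is a statin, an inhibitor of the rate-limiting enzyme of cholesterol synthesis, and the label of the treated group writes it both as PS and as Pra. Each library came from 1 animal, and with 2 animals in a group the spread within a group is known only roughly.

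Glutathione is made from glutamate, cysteine and glycine in 2 steps, by glutamate-cysteine ligase and then glutathione synthetase. Glutathione peroxidases use it to reduce peroxides, transferases attach it to electrophiles, and glutathione reductase regenerates it with NADPH. A parallel system of peroxiredoxins draws on thioredoxin and thioredoxin reductase, while superoxide dismutases and catalase act without thiols. The transcription factor NRF2 (NFE2L2), which KEAP1 holds in check, controls many of these genes. Intestinal epithelium is rich in several of these enzymes, among them GPX2, a peroxidase made mainly in gastrointestinal epithelium and strongest in crypts.

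Library totals lay between 48600424 and 73975174 reads. Levels are given as CPM, read counts relative to the TMM-scaled library size, and comparisons rest on edgeR's quasi-likelihood test with Benjamini-Hochberg adjustment over 18197 genes, with a gene called at an adjusted p under 0.05. The villus markers VIL1 and SI had reads in every library and were lowest in IR 2, at 122 CPM for VIL1 and 37.1 CPM for SI. In control libraries VIL1 had 2183 and 1906 CPM, and SI had 3042 and 2793 CPM. These 2 markers thus bore out the tissue label less clearly in IR 2, and the IR libraries stood apart from each other. The 10 markers of epithelium in general summed to 9007 and 7427 CPM in IR_Pra libraries, 7496 and 1661 CPM in IR libraries, and 7954 and 8927 CPM in control libraries. Absorptive enterocyte markers (15 of 16 measured) summed to 18730 and 18910 CPM in IR_Pra libraries, 51470 and 1100 CPM in IR libraries, and 25880 and 28360 CPM in control libraries. In both lists the IR 2 library was far below all others. The high enterocyte sum in IR 1 came from APOA1, FABP1 and APOA4, which made up 82.1% of it. Of the 15 markers, 8 were lower in IR 1 than in both control libraries and 6 were higher, with a median log2 ratio of -0.25 to the control mean. Macrophage markers (14 of 14) summed to 1315 and 1963 CPM in IR_Pra libraries, 3743 and 4189 CPM in IR libraries, and 780.3 and 792.6 CPM in control libraries. Smooth muscle markers (10 of 10) summed to 22160 and 14910 CPM in IR_Pra libraries, 34100 and 72920 CPM in IR libraries, and 6493 and 13270 CPM in control libraries. Fibroblast and matrix markers (10 of 10) summed to 7895 and 5415 CPM in IR_Pra libraries, 9663 and 28310 CPM in IR libraries, and 2287 and 3837 CPM in control libraries. The IR 2 library therefore held the least epithelial signal and the most muscle and matrix signal of all. In bulk tissue, fewer cells of a type and less RNA per cell cannot be told apart, and how far these markers carry the members' levels was not tested.

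**Figure D1:**
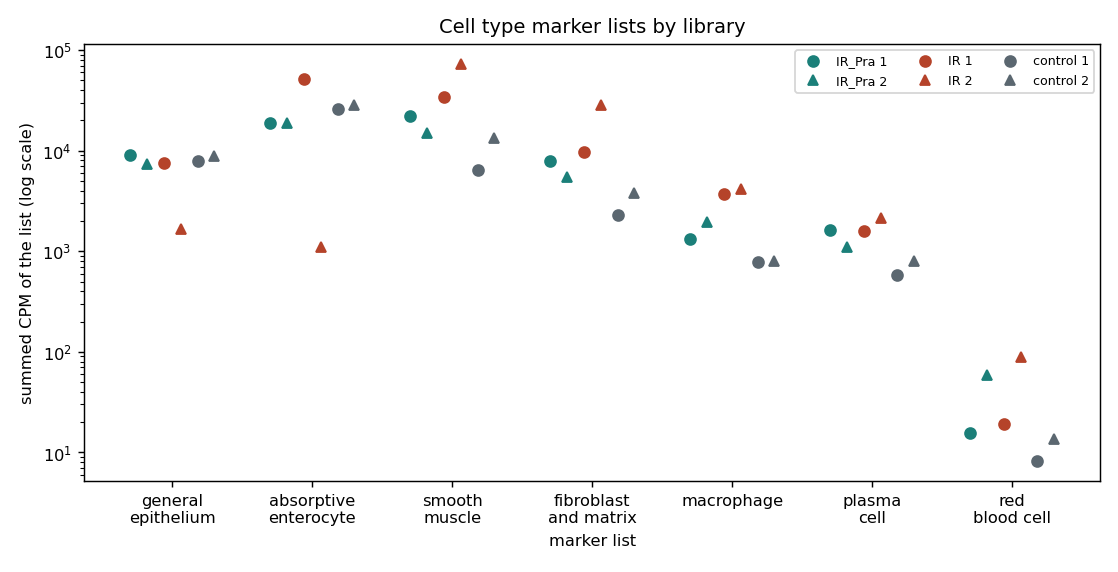
Summed CPM of marker lists (log axis) in each library, IR_Pra, IR and control from left to right, 1 point per animal. Absorptive enterocyte markers span 51470 to 1100 CPM between the IR libraries, while macrophage markers are higher in both IR libraries than in any other.

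Compared per transcript length, the most abundant members were GPX1, TXN, SOD1, PRDX1 and PRDX2, with means over the 6 libraries of 391, 341, 300, 290 and 243 FPKM. FPKM, which relates reads to transcript length and library size, is the authors' deposited value. GPX1, the general cytosolic peroxidase, had 249 and 382 FPKM in IR_Pra libraries, 593 and 682 FPKM in IR libraries, and 274 and 167 FPKM in control libraries. TXN, cytosolic thioredoxin, had 159 and 466 FPKM in IR_Pra libraries, 511 and 134 FPKM in IR libraries, and 347 and 431 FPKM in control libraries. The ranges of neighbours in this order overlapped widely, so the first 5 ranks are not separable. SOD1, the cytosolic superoxide dismutase, ranged between 217 and 388 FPKM over the 6 libraries. PRDX1 and PRDX2, the abundant cytosolic peroxiredoxins, ranged between 191 and 429 FPKM and between 195 and 350 FPKM. At the other end stood GCLM, the modifier subunit of glutamate-cysteine ligase, at a mean of 2.08 FPKM, GPX7 at 4.75 FPKM and GPX8 at 6.57 FPKM. The median over members was 48.2 FPKM.

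**Figure D2:**
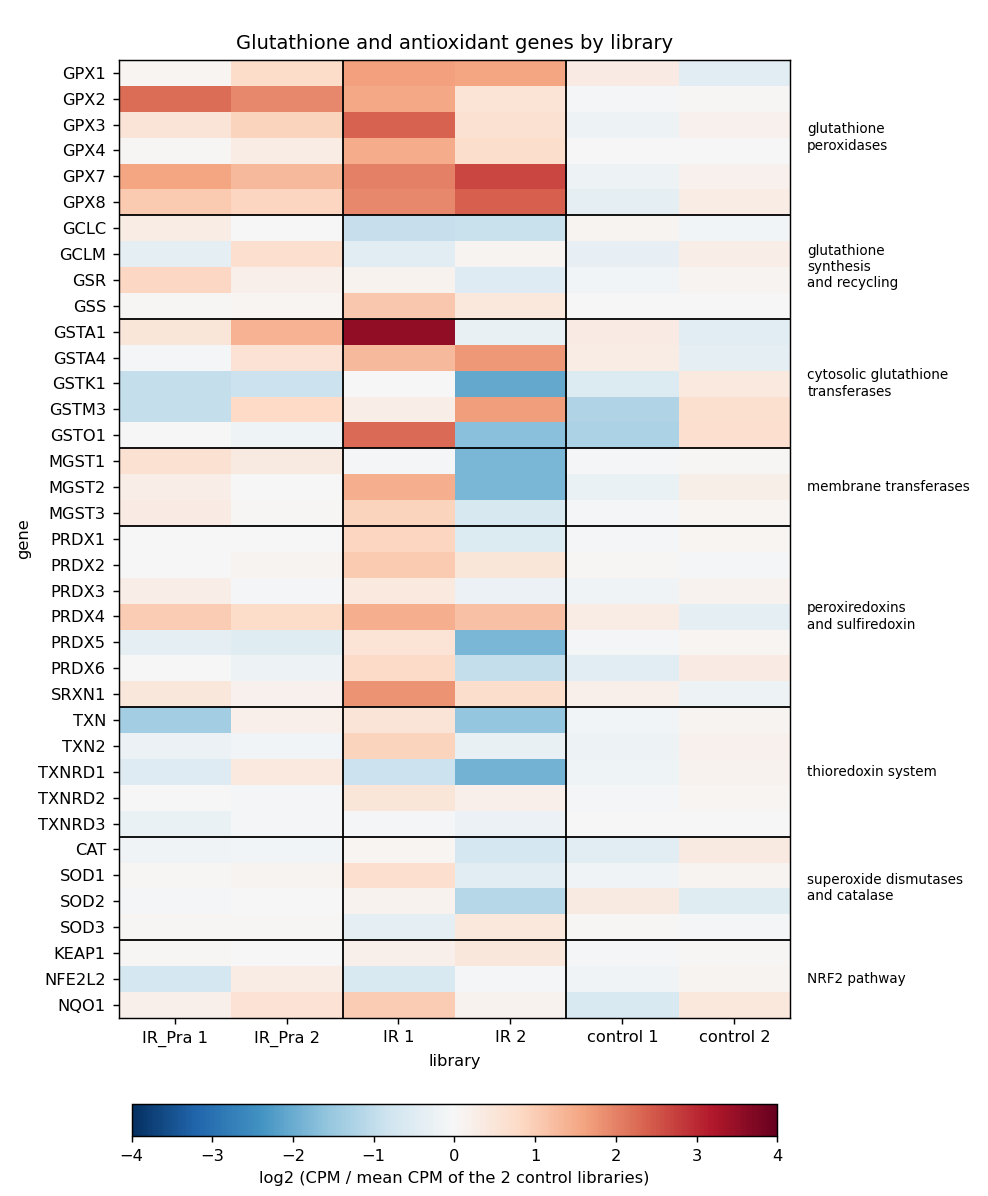
Log2 ratio of each member's CPM to the mean of the control libraries, for the 37 members (rows, by role) in the 6 libraries (columns: IR_Pra, IR, control). The glutathione peroxidase rows are above the control mean in both IR libraries, and the IR 1 column is above it for 30 of 37 members, against 17 of 37 in the IR 2 column.

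Irradiation was first compared with no irradiation. In IR intestine, GPX7 and GPX8 rose, and no other member passed the threshold in either direction. Both are peroxidases of the endoplasmic reticulum that lack the selenium of the classical enzymes and act beside the oxidative folding of secreted proteins. The 2 calls among 37 members stand beside 6.06% of all genes called in either direction and 3.39% called higher. By DESeq2, 10 members were called (GPX1, GPX3, GPX4, GPX7, GPX8, GSTA1, GSTA4, PRDX4 and SRXN1 higher, GCLC lower), beside 22.7% of all genes.

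GPX7, on chromosome 6 (159590479 to 159598768, Sscrofa11.1), had 8.63 and 7.18 CPM in IR_Pra libraries, 11.8 and 18.5 CPM in IR libraries, and 2.55 and 3.25 CPM in control libraries. The 3 groups did not overlap, and IR_Pra lay between the other two. The IR level was 5.22-fold the control level (log2 fold change 2.39 ± 0.36, SE; edgeR adjusted p = 0.0370). GPX8, on chromosome 16 (34336154 to 34341861), had 7.01 and 6.13 CPM in IR_Pra libraries, 12.8 and 17.5 CPM in IR libraries, and 2.56 and 4.19 CPM in control libraries. Its groups fell in the same order without overlap. The IR level was 4.49-fold the control level (log2 fold change 2.17 ± 0.37, SE; edgeR adjusted p = 0.0410). These levels rest on 147 to 1400 reads per library for GPX7 and on 148 to 1327 reads for GPX8. GPX8 lies inside the span of CDC20B in the annotation, which had 0 reads in all 6 libraries.

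Without IR 1 the log2 fold change was 2.67 for GPX7 and 2.37 for GPX8, and without IR 2 it was 2.02 and 1.92. These fits hold 1 IR animal and take no spread from IR, and they called more of all genes. Whether the 2 calls pass in them is therefore no check of the calls. Both calls were lost, with those of all other genes, when any other library was left out. For GPX7 the edgeR adjusted p was then 0.101 without IR_Pra 1, 0.101 without IR_Pra 2, 0.238 without control 1 and 0.177 without control 2, at log2 fold changes between 2.24 and 2.63. For GPX8 it was 0.103 without either IR_Pra library, 0.238 without control 1 and 0.177 without control 2, at log2 fold changes between 1.88 and 2.63. Both genes were highest in the IR 2 library, where the smooth muscle and the fibroblast and matrix markers were also highest, and the part of those markers in the result was not tested. The calls also missed the threshold with library size as the only scaling (edgeR adjusted p = 0.0514 for GPX7 and 0.0578 for GPX8) and with limma on log2(FPKM + 1) (0.0645 and 0.0603). A fit of the 4 libraries compared called 0 of all genes (edgeR adjusted p = 0.0995 for GPX7 and 0.101 for GPX8).

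**Figure D3:**
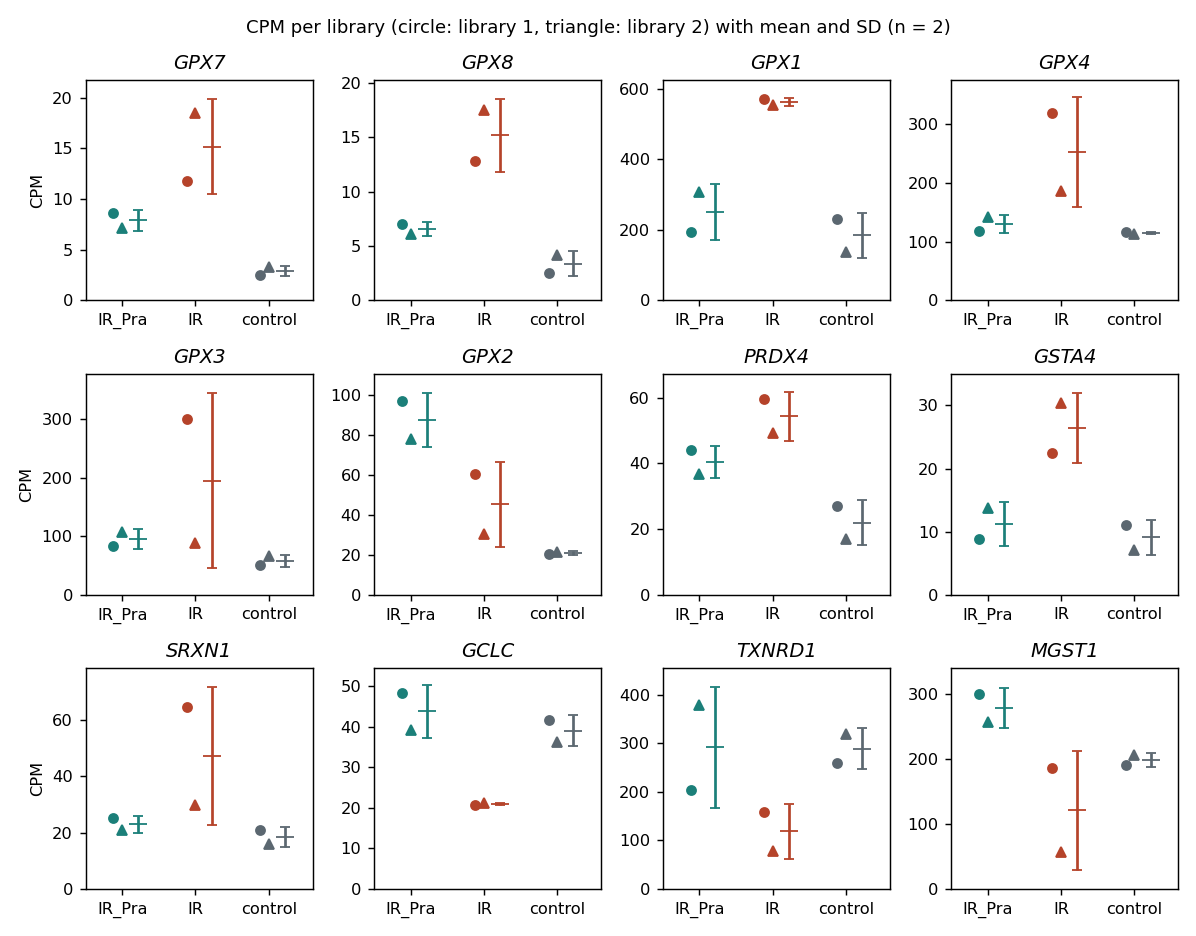
CPM of the 6 glutathione peroxidases and 6 other members in each library (linear axis from 0), IR_Pra, IR and control from left to right, 1 point per animal, with the mean and SD of each group (n = 2). GPX7 has 11.8 and 18.5 CPM in IR libraries and 2.55 and 3.25 CPM in control libraries, with IR_Pra in between, while GPX2 is highest in IR_Pra.

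The other glutathione peroxidases were also higher in both IR libraries than in both control libraries, short of the threshold. GPX1, on chromosome 13 (31916269 to 31917337), had 194.8 and 307.2 CPM in IR_Pra libraries, 569.6 and 554.8 CPM in IR libraries, and 230.0 and 138.1 CPM in control libraries. The IR libraries lay close together and above the other 4, and IR_Pra and control overlapped. The log2 fold change of IR over control was 1.61 ± 0.38 (SE; edgeR adjusted p = 0.0614). GPX4, the selenoenzyme that reduces lipid peroxides in membranes, had 118.7 and 141.2 CPM in IR_Pra libraries, 318.7 and 186.6 CPM in IR libraries, and 116.3 and 113.4 CPM in control libraries. Both IR libraries were above the other 4, IR 1 the more so. Its log2 fold change was 1.14 ± 0.32 (SE; edgeR adjusted p = 0.0817), and 0.70 without IR 1. GPX3, the secreted plasma peroxidase, had 82.7 and 107.2 CPM in IR_Pra libraries, 300.8 and 89.2 CPM in IR libraries, and 50.9 and 65.4 CPM in control libraries. IR 1 stood far above the other libraries, and IR 2 fell within the IR_Pra range. The log2 fold change of 1.75 ± 0.57 (SE; edgeR adjusted p = 0.110) was 0.61 without IR 1. GPX2 had 97.3 and 78.1 CPM in IR_Pra libraries, 60.4 and 30.4 CPM in IR libraries, and 20.3 and 21.4 CPM in control libraries. The 3 groups did not overlap, and IR lay between the other two. Its difference between IR and control was 1.12 ± 0.36 on the log2 scale (SE; edgeR adjusted p = 0.108), and 0.54 without IR 1. The median log2 fold change of the 6 peroxidases was 1.68, beside 0.33 for all members and 0.03 for all genes tested.

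Genes of glutathione synthesis and recycling went different ways, and none of the 4 was called. GCLC, the catalytic subunit of glutamate-cysteine ligase and the first step of synthesis, lies on chromosome 7 (27209565 to 27253535). It had 48.5 and 39.2 CPM in IR_Pra libraries, 20.8 and 21.1 CPM in IR libraries, and 41.8 and 36.3 CPM in control libraries. Both IR libraries were below the other 4 and nearly equal to each other. Its log2 fold change in IR against control was -0.90 ± 0.23 (SE; edgeR adjusted p = 0.0692). GSS, glutathione synthetase and the second step, had 22.2 and 22.7 CPM in IR_Pra libraries, 45.5 and 28.8 CPM in IR libraries, and 21.1 and 21.7 CPM in control libraries. It was higher in both IR libraries, with a log2 fold change of 0.80 ± 0.28 (SE; edgeR adjusted p = 0.129) that was 0.43 without IR 1 and 1.09 without IR 2. GSR, glutathione reductase, had 108.5 and 70.3 CPM in IR_Pra libraries, 67.1 and 43.2 CPM in IR libraries, and 56.4 and 66.0 CPM in control libraries, so IR and control overlapped. GCLM ranged between 7.89 and 16.9 CPM, with all 3 groups overlapping.

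Several glutathione transferases differed widely between the 2 IR animals, and none of the 5 with a GST symbol or the 3 membrane ones was called. GSTA1, a detoxifying transferase abundant in absorptive epithelium, had 77.6 and 143.2 CPM in IR_Pra libraries, 645.2 and 45.1 CPM in IR libraries, and 68.7 and 41.5 CPM in control libraries. The IR libraries were the second lowest and the highest of the 6, and the log2 fold change of 2.65 ± 1.13 against control (SE; edgeR adjusted p = 0.179) was -0.29 without IR 1. GSTA4, which clears 4-hydroxynonenal, a product of lipid peroxidation, had 8.79 and 13.7 CPM in IR_Pra libraries, 22.5 and 30.4 CPM in IR libraries, and 11.06 and 7.14 CPM in control libraries. It was the only transferase of the rule that was higher in both IR libraries than in both control libraries, by 1.54 ± 0.37 on the log2 scale (SE; edgeR adjusted p = 0.0632). GSTO1, an omega class transferase, had 57.6 and 52.1 CPM in IR_Pra libraries, 281.7 and 18.4 CPM in IR libraries, and 24.4 and 92.3 CPM in control libraries. The IR libraries were thus the highest and the lowest of all. GSTK1, a mitochondrial and peroxisomal transferase, had 54.8 and 58.4 CPM in IR_Pra libraries, 106.4 and 25.8 CPM in IR libraries, and 72.3 and 138.5 CPM in control libraries. GSTM3 differed by more than 2-fold within every group, with 4.13 and 13.9 CPM in IR_Pra libraries, 9.66 and 26.0 CPM in IR libraries, and 3.48 and 12.7 CPM in control libraries.

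Of the membrane transferases, MGST1, a microsomal and mitochondrial enzyme, had 299.9 and 256.0 CPM in IR_Pra libraries, 185.7 and 56.0 CPM in IR libraries, and 190.1 and 206.1 CPM in control libraries. Its 3 groups did not overlap, with IR lowest and IR_Pra highest, yet the difference between IR and control missed the threshold (log2 fold change -0.71 ± 0.54, SE; edgeR adjusted p = 0.410). It turned on the animal: it was -1.83 without IR 1 and -0.10 without IR 2. MGST2, which makes leukotriene C4, had 41.4 and 33.7 CPM in IR_Pra libraries, 93.9 and 9.64 CPM in IR libraries, and 28.1 and 40.2 CPM in control libraries. Its direction turned with the animal: the log2 fold change against control was -1.83 without IR 1 and 1.45 without IR 2. MGST3 ranged between 50.9 and 144.2 CPM, both from IR libraries.

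The table also holds 14 rows whose product is a glutathione transferase but whose name carries no transferase symbol, so the rule did not take them. They were looked up after the members' values were seen. Of these, 12 had reads and were tested, and 2 had 0 reads. The row with the most reads, LOC100739163, a pi-class gene by its product name, had 588 and 907 CPM in IR_Pra libraries, 1083 and 349 CPM in IR libraries, and 903 and 828 CPM in control libraries. LOC106504562, an alpha-class gene beside GSTA1 on chromosome 7, had 71.0 and 68.4 CPM in IR_Pra libraries, 712 and 49.2 CPM in IR libraries, and 28.2 and 37.7 CPM in control libraries. It shared the high value of GSTA1 in IR 1, and reads can be split between such near copies in the alpha and mu clusters, so the single-gene values there are uncertain. LOC100153094, named as glutathione S-transferase theta-1, had 4.73 and 4.86 CPM in IR_Pra libraries, 13.2 and 18.8 CPM in IR libraries, and 3.91 and 4.11 CPM in control libraries. It was the 1 row of the 12 that was called in IR against control, and it was higher (log2 fold change 1.99 ± 0.31, SE; edgeR adjusted p = 0.0371). Among all genes, 6.06% were called in either direction and 3.39% higher.

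None of the 7 peroxiredoxin and sulfiredoxin genes was called in IR against control. In 3 of them (42.9%) both IR libraries were above both control libraries, beside 29.8% of all genes. PRDX4, the peroxiredoxin of the endoplasmic reticulum, had 43.9 and 36.9 CPM in IR_Pra libraries, 59.5 and 49.1 CPM in IR libraries, and 26.8 and 17.0 CPM in control libraries. The 3 groups did not overlap. Its log2 fold change in IR was 1.31 ± 0.30 (SE; edgeR adjusted p = 0.0587), the smallest adjusted p below GPX7 and GPX8, and it passed, at an unchanged design, when only genes at 5 CPM or more in 2 libraries were tested. SRXN1, which repairs overoxidised peroxiredoxins, had 25.2 and 20.9 CPM in IR_Pra libraries, 64.6 and 29.8 CPM in IR libraries, and 21.1 and 15.9 CPM in control libraries (log2 fold change 1.35 ± 0.41, SE; edgeR adjusted p = 0.0953). Its log2 fold change was 0.69 without IR 1 and 1.80 without IR 2. PRDX2 had 196.7 and 210.8 CPM in IR_Pra libraries, 402.3 and 277.9 CPM in IR libraries, and 201.2 and 192.2 CPM in control libraries (log2 fold change 0.79 ± 0.28, SE; edgeR adjusted p = 0.128). For each of these the IR libraries lay above the other 4. PRDX1 had 394.6 and 399.0 CPM in IR_Pra libraries, 727.7 and 271.7 CPM in IR libraries, and 377.0 and 419.0 CPM in control libraries. PRDX5, found in mitochondria and peroxisomes, had 147.8 and 137.4 CPM in IR_Pra libraries, 281.8 and 54.7 CPM in IR libraries, and 184.1 and 202.6 CPM in control libraries. PRDX6, which also acts on phospholipid peroxides, and the mitochondrial PRDX3 ranged between 52.6 and 172.3 CPM and between 100.4 and 153.8 CPM. In all of PRDX1, PRDX3, PRDX5 and PRDX6 the IR libraries were the highest and the lowest of the 6, so their direction against control depended on which one was used.

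In the thioredoxin system no gene of 5 was called. TXNRD1, cytosolic thioredoxin reductase, had 203.8 and 378.8 CPM in IR_Pra libraries, 157.7 and 78.7 CPM in IR libraries, and 258.6 and 319.5 CPM in control libraries. Both IR libraries were below the other 4, with a log2 fold change of -1.29 ± 0.46 against control (SE; edgeR adjusted p = 0.130), which was -1.88 without IR 1 and -0.88 without IR 2. TXN had 74.7 and 223.4 CPM in IR_Pra libraries, 280.3 and 66.7 CPM in IR libraries, and 180.3 and 212.1 CPM in control libraries. It varied by 2.99-fold within IR_Pra and 4.20-fold within IR, and the groups overlapped. TXN2, mitochondrial thioredoxin, ranged between 54.7 and 124.9 CPM. TXNRD2, the mitochondrial reductase, had 29.3 and 24.2 CPM in IR libraries and 19.7 and 22.1 CPM in control libraries (edgeR adjusted p = 0.350). TXNRD3, a thioredoxin and glutathione reductase known from testis, had 22.9 and 20.1 CPM in IR libraries and 23.3 and 23.8 CPM in control libraries, a small difference within its error (edgeR adjusted p = 0.723).

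The superoxide dismutases and catalase showed no separation of IR and control. SOD1 had 194.3 and 202.5 CPM in IR_Pra libraries, 296.5 and 140.1 CPM in IR libraries, and 171.8 and 203.5 CPM in control libraries. CAT, catalase of the peroxisome, had 202.6 and 204.8 CPM in IR_Pra libraries, 231.1 and 134.5 CPM in IR libraries, and 161.4 and 281.0 CPM in control libraries. SOD2, the mitochondrial dismutase, ranged between 31.2 and 88.0 CPM, and SOD3, the extracellular one, between 26.3 and 44.6 CPM. The log2 fold changes of these 4 genes in IR against control lay between -0.35 and 0.22, with standard errors of 0.30 to 0.48, and the sign of each turned when 1 of the IR libraries was left out.

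Among the regulators, KEAP1 had 78.4 and 77.2 CPM in IR_Pra libraries, 88.5 and 103.8 CPM in IR libraries, and 73.1 and 79.4 CPM in control libraries. The IR libraries were above the other 4 by a small margin (log2 fold change 0.33 ± 0.21 against control, SE; edgeR adjusted p = 0.337). NFE2L2 ranged between 66.7 and 131.5 CPM, both in IR_Pra, with all groups overlapping. NQO1, a quinone reductase and a classical NRF2 target, had 18.8 and 24.3 CPM in IR_Pra libraries, 33.0 and 17.8 CPM in IR libraries, and 10.6 and 22.04 CPM in control libraries (edgeR adjusted p = 0.391 for IR against control).

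Counted over all members, 25 of 37 had a positive log2 fold change in IR against control, beside 51.3% of all genes. An unadjusted edgeR p under 0.05 was reached by 13 members (35.1%), beside 30.2% of all genes. The IR libraries were both above both control libraries for 13 members and both below for 4 (GCLC, MGST1, TXNRD1 and TXNRD3), beside 29.8% and 30.0% of all genes. The share of members whose groups were apart, 45.9%, was thus below the 59.8% of all genes. All 6 peroxidases were among the 13. By that definition each has a positive log2 fold change without IR 1 (0.54 to 2.67) and without IR 2 (1.47 to 2.37), so these values add no separate support. The direction of the whole set depended on 1 animal. Without IR 1, the members' median was -0.23 and 17 of 37 were positive. Without IR 2, the median was 0.76 and 30 of 37 were positive. Each of these fits holds 1 IR animal, so calls in them are not listed. Of the 37 members, 17 changed sign when 1 or the other IR library was left out.

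**Figure D4:**
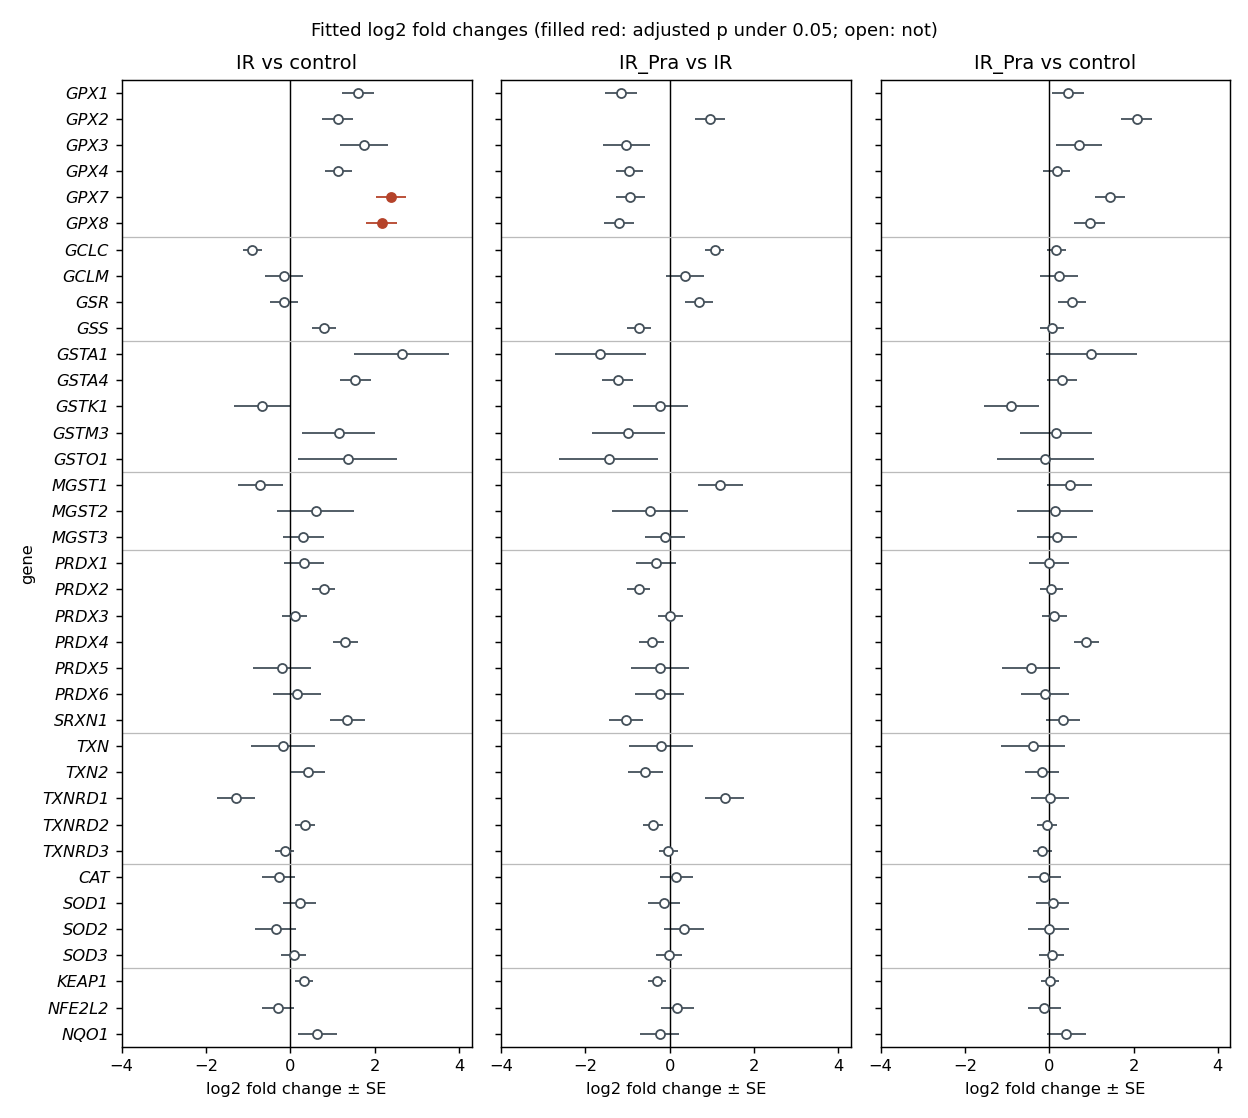
Log2 fold change with its standard error for each of the 37 members in the 3 comparisons (IR over control, IR_Pra over IR, IR_Pra over control), from 2 animals per group. Filled points passed the threshold, which in IR against control were GPX7 (2.39) and GPX8 (2.17) and in the other comparisons none.

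The drug was compared with irradiation alone. No member was called by edgeR in IR_Pra against IR, beside 0.0055% of all genes, and 11 had an unadjusted p under 0.05, beside 24.5% of all genes. DESeq2 called 4 (GCLC higher, GPX1, GPX8 and GSTA4 lower), beside 15.8% of all genes. GCLC had the smallest p of the members, with IR_Pra above IR by 1.07 ± 0.23 on the log2 scale (SE; edgeR adjusted p = 0.0891). Its log2 fold change was 1.06 without IR 1 and 1.08 without IR 2, and its IR_Pra and control values overlapped. In the opposite direction stood GSTA4 (log2 fold change -1.24 ± 0.37, SE; edgeR adjusted p = 0.125), GPX8 (-1.21 ± 0.36; adjusted p = 0.125) and GPX1 (-1.16 ± 0.38; adjusted p = 0.141). TXNRD1 was higher in IR_Pra than in IR by 1.30 ± 0.46 (SE; edgeR adjusted p = 0.163). In all 5 of these the IR_Pra libraries lay apart from the IR libraries on the side of the control values.

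Only 10 of 37 members had a positive log2 fold change in IR_Pra against IR, beside 49.1% of all genes, and the members' median was -0.24, beside -0.02. Here too the direction depended on 1 animal: the median was 0.28 with 23 of 37 positive without IR 1, and -0.61 with 8 of 37 positive without IR 2. PRDX5 and MGST2 changed direction, at log2 fold changes of 1.39 and 1.97 without IR 1 and of -0.98 and -1.32 without IR 2. The IR_Pra libraries were both above both IR libraries for 5 members (GCLC, GPX2, GSR, MGST1 and TXNRD1) and both below for 11, beside 27.3% and 26.6% of all genes. Both directions together gave 43.2% of members and 53.9% of all genes. This comparison shares the IR libraries with the one before, so opposite signs in both follow in part from the same 2 libraries. Of the 6 peroxidases, 5 were lower in IR_Pra than in IR in their mean, and GPX2 was the exception. Without IR 1, GPX3 was no longer lower (log2 fold change 0.09), and GPX2 was at 1.53, GPX7 at -1.22 and GPX8 at -1.41. Without IR 2, GPX3 was at -1.66 and GPX4 at -1.29.

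Against control, the irradiated and treated intestine had no called member by edgeR, beside 0.0% of all genes. An unadjusted p under 0.05 was reached by 4 members (GPX2, GPX7, PRDX4 and GPX8, all higher), 10.8% of them, beside 3.42% of all genes. DESeq2 called GPX2 alone (adjusted p = 0.00363), beside 0.412% of all genes. GPX2, on chromosome 7 (89007636 to 89011620), was the member with the widest gap: its IR_Pra libraries were highest, the control libraries lowest and the IR libraries between, without overlap. The log2 fold change in IR_Pra was 2.07 ± 0.37 against control (SE; edgeR adjusted p = 0.9998) and 0.95 ± 0.36 against IR (SE; edgeR adjusted p = 0.181). GPX2 lies within the span of CHURC1, and the sources used here do not say whether counting used strand. Of the 37 members, 10 overlap another annotated gene (GPX2, GPX8, GSS, MGST2, NFE2L2, PRDX2, PRDX6, SOD1, TXN and TXNRD2). CHURC1 had 3335 and 2875 reads in IR_Pra libraries, 1681 and 2833 reads in IR libraries, and 2822 and 4194 reads in control libraries. Whether reads were shared between them, and the part of the epithelial markers in the level of GPX2, was not tested.

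GPX7 and GPX8 were above control in IR_Pra by 1.45 ± 0.35 and 0.96 ± 0.36 on the log2 scale (SE; edgeR adjusted p = 0.9998 for both). PRDX4 was higher by 0.88 ± 0.30 (SE; edgeR adjusted p = 0.9998). The members with the smallest p on the lower side were GSTK1 at -0.90 ± 0.66, TXNRD3 at -0.16 ± 0.23 and PRDX5 at -0.44 ± 0.68 on the log2 scale (SE). The IR_Pra libraries were both above both control libraries for 11 members and both below for 3 (GSTK1, PRDX5 and TXNRD3), beside 20.8% and 20.0% of all genes, which together gave 37.8% of members and 40.8% of all genes. A positive log2 fold change was seen for 25 of 37, beside 50.6%, with a median of 0.12, beside 0.00.

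The members differed between the IR animals more than all genes did. Of 37 members, 17 (45.9%) differed by more than 2-fold between the IR libraries, beside 32.6% of all genes. In IR_Pra and in control 3 members each (8.11%) did so, beside 11.7% and 12.1% of all genes. In IR, 16 of the 17 were higher in IR 1, and GSTM3 alone was higher in IR 2. GSTO1 differed by 15.3-fold, GSTA1 by 14.3-fold, MGST2 by 9.74-fold, PRDX5 by 5.15-fold, TXN by 4.20-fold and GSTK1 by 4.13-fold. All members together made up 3430 and 3907 CPM in IR_Pra libraries, 6204 CPM in IR 1 and 2921 CPM in IR 2, and 3194 and 3646 CPM in control libraries. Enterocyte markers also separated the IR animals: 14 of 15 were higher in IR 1 than in IR 2. Against control they did not move as a block in IR 1: FABP1, which carries fatty acids in enterocytes, was at 12260 CPM in IR 1, beside 149 and 91.1 CPM in control libraries, while SI, a brush border sugar-splitting enzyme, was at 911 CPM in IR 1, beside 3042 and 2793 CPM in control libraries. Their part in the members' levels was not tested.

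**Figure D5:**
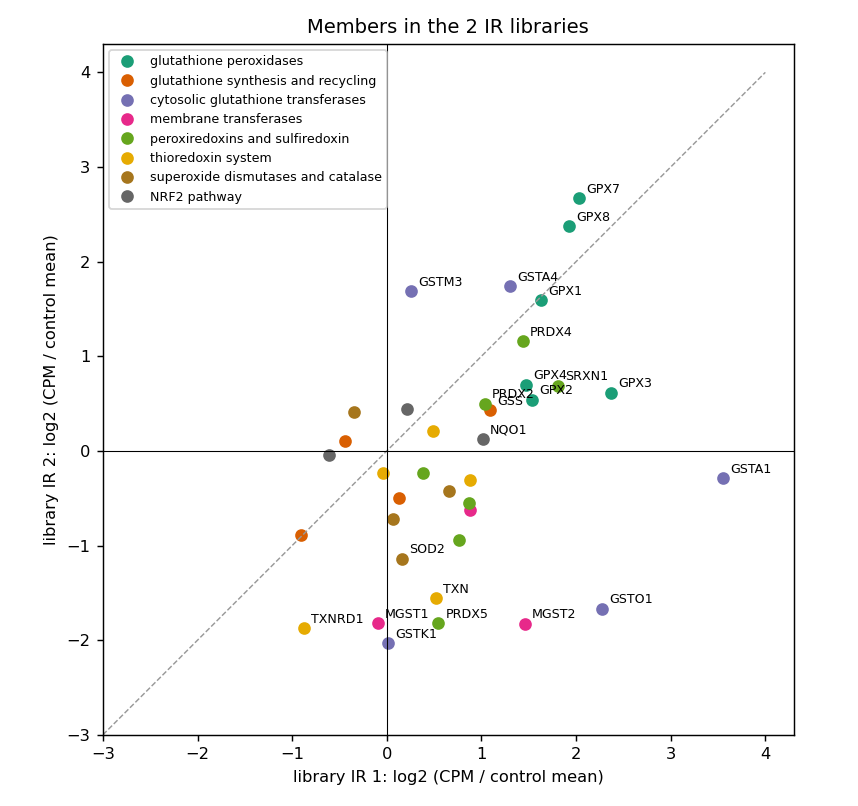
Log2 ratio of each member's CPM to the control mean in the IR 1 library (horizontal axis) and the IR 2 library (vertical axis), 1 point per member, coloured by role, with a dashed line at equality. GPX7, GPX8, GPX1 and GSTA4 lie near the line and high in both libraries, while GSTA1 and GSTO1 lie far to the IR 1 side and GSTM3 to the IR 2 side.

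A further measure moved with the IR 1 library. Its level relative to control fell with transcript length across genes (Spearman's rho -0.42 over 14960 genes, a description, since genes share the library), against -0.07 in IR 2, and the remaining libraries had rho between -0.18 and 0.15. The members are short, with a median length of 1476 nt implied by their counts and FPKM, beside 3194 nt for all genes. With each library's trend with length removed, an alternative chosen after seeing the data, the members' median log2 fold change in IR against control was 0.06 in place of 0.33, and in IR_Pra against IR it was 0.05 in place of -0.24. GPX7 was then still called (log2 fold change 2.14; edgeR adjusted p = 0.0478), and GPX8 was not (1.83; adjusted p = 0.0598). The log2 fold change of GPX1 was 1.15 in place of 1.61, and that of GPX2 was 0.58 in place of 1.12. For GPX3 it was 1.38 in place of 1.75, and for GPX4 it was 0.64 in place of 1.14. The cause of the trend was not tested.

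Genes around the members were read from 6 lists with 128 tested genes. In IR against control, 7 of them rose and 2 fell by edgeR, 7.03% of the lists, which is near the 6.06% of all genes. All 9 kept their direction without IR 1 and without IR 2, in fits that hold 1 IR animal and are no check of the calls. The 9 calls were lost, with those of all other genes, when any other library was left out. Among 15 genes of selenoprotein synthesis and other selenoproteins, 4 were called higher, beside 3.39% of all genes, and none lower. Of the 15, 6 had a negative log2 fold change, and the list's median was 0.32. The IR libraries were both above both control libraries for 7 and both below for 6, beside 29.8% and 30.0% of all genes. Both directions together gave 86.7% of the list and 59.8% of all genes. SELENOM had 27.1 and 21.8 CPM in IR_Pra libraries, 95.1 and 90.5 CPM in IR libraries, and 18.3 and 16.3 CPM in control libraries (log2 fold change 2.42 ± 0.24, SE; edgeR adjusted p = 0.0357). SELENOW, a small muscle-rich selenoprotein, had 14.3 and 13.4 CPM in IR_Pra libraries, 54.5 and 43.8 CPM in IR libraries, and 11.3 and 9.70 CPM in control libraries (2.23 ± 0.25; edgeR adjusted p = 0.0359). SELENON rose to 116 and 191 CPM in IR libraries, against 55.2 and 53.0 CPM in control libraries (edgeR adjusted p = 0.0484). SELENOH rose to 24.7 and 27.0 CPM in IR libraries, against 10.6 and 9.03 CPM in control libraries (edgeR adjusted p = 0.0415). For each of these 4 genes the IR libraries lay above all others.

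Of 31 other thiol and repair enzymes, 3 were called higher and none lower, and 8 had a negative log2 fold change. Beside them, 6.06% of all genes were called in either direction and 3.39% higher. MSRB1, a selenoenzyme that repairs oxidised methionine, had 90.6 and 80.8 CPM in IR_Pra libraries, 237 and 203 CPM in IR libraries, and 71.4 and 76.7 CPM in control libraries (log2 fold change 1.57 ± 0.23, SE; edgeR adjusted p = 0.0370). NXN, nucleoredoxin, rose by 2.27 on the log2 scale, and PARK7, the redox sensor DJ-1, had 231 and 218 CPM in IR libraries and 91.0 and 89.5 CPM in control libraries (edgeR adjusted p = 0.0466). Of 17 NADPH supply genes 1 was called, and it was lower, beside the same 6.06%. This gene, NNT, the mitochondrial transhydrogenase, had 172 and 162 CPM in IR_Pra libraries, 84.0 and 88.5 CPM in IR libraries, and 209 and 186 CPM in control libraries (log2 fold change -1.20 ± 0.22, SE; edgeR adjusted p = 0.0445). Of 28 other NRF2 targets and partners 1 was called, and it was lower, again beside 6.06%. This gene, BACH1, a repressor that competes with NRF2, had 54.1 and 36.5 CPM in IR_Pra libraries, 10.7 and 18.8 CPM in IR libraries, and 59.0 and 60.5 CPM in control libraries (-2.02 ± 0.36; edgeR adjusted p = 0.0423). None of 17 genes of glutathione precursor supply and breakdown was called, and 2 (11.8%) had an unadjusted edgeR p under 0.05, beside 30.2% of all genes. In IR_Pra against IR no gene of the 6 lists was called by edgeR. Of the 128, 22 had an unadjusted p under 0.05 (17.2%, beside 24.5% of all genes), and DESeq2 called 18 (14.1%, beside 15.8%).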

How the data were processed

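Read counts per gene, and FPKM beside them, were used as the authors deposited them, per the file headers. Per the submitters' processing notes the tools were bcl2fastq 2.20.0, Trimmomatic, HISAT2 2.1.0 and StringTie 2.1.3b, with the builds Sscrofa11.1 and GRCh38. Neither the role of each build nor the step that made whole-number counts is stated in the sources used here. The 24 rows without a gene name (0.00906% to 0.0385% of a library) were left out. All 37 members matched RefSeq's Sscrofa11.1 annotation by Entrez ID, the source of the coordinates.

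Counts were fitted in R 4.3.3 with edgeR 4.0.16 (TMM factors, filterByExpr by group, 18197 genes kept, 1 quasi-likelihood model of all 6 libraries by group, with 3 residual degrees of freedom). The 3 comparisons used two-sided quasi-likelihood F tests with Benjamini-Hochberg adjustment over all genes kept, and standard errors were taken from F. The common dispersion corresponded to a biological coefficient of variation of 0.431. CPM are counts relative to the TMM-scaled library size. Length was inferred from counts and FPKM. Of the genes with enough reads to check, 49.5% gave lengths within 1% of each other over the libraries and 82.1% within 10%. FPKM was therefore not a fixed function of the counts for many genes. The fit was tested on simulated counts. Alternatives were DESeq2 1.42.0, other scalings and filters, a replicate block, limma 3.58.1 on log2(FPKM + 1), 4 libraries only and each library left out.

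The members, the gene lists and the tests were chosen with earlier results of these data known. Genes named with values were every member called, the 3 with the smallest p in each direction and comparison, the 5 most abundant, those differing most between animals of a group and, to complete each role, the others. From the 6 other lists the called genes were named.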

Additional observations from a re-analysis of the deposited data

How the results depend on the processing

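Which IR animal was used set many directions. Over all 37 members, 17 changed sign in IR against control and 19 in IR_Pra against IR when IR 1 or IR 2 was left out. The members' median ran between -0.23 (without IR 1) and 0.76 (without IR 2) in IR against control, and between -0.61 (without IR 2) and 0.28 (without IR 1) in IR_Pra against IR, where it was also 0.051 with the length trend removed and 0.057 by limma. Of the single-gene results given above, 41 were followed over the alternatives, with 656 alternative values. Of these values, 590 kept their side of the threshold, 40 came to pass it, 17 no longer passed and 9 changed sign. The 17 all came from GPX7 and GPX8 in IR against control, the only results of the 41 called in the main fit. The 590 are thus mostly uncalled results that stayed uncalled, and do not speak for the 2 calls. The 9 changes of sign were all in IR against control. There, leaving out 1 library gave -0.29 to 3.55 for GSTA1, -0.72 to 0.27 for CAT, -0.42 to 0.66 for SOD1, -1.14 to 0.19 for SOD2 and -0.35 to 0.40 for SOD3. Removing the length trend gave -0.40 for SOD1 and -0.21 for SOD3. Sign changes without an IR library were also seen outside the 41, as for MGST2 in IR against control and for GPX3, MGST2 and PRDX5 in IR_Pra against IR. In IR against control, 1103 genes and 2 members were called. DESeq2 called 4131 and 10, library size alone 475 and 0, limma on log2(FPKM + 1) 403 and 0, a fit of the 4 libraries compared 0 and 0, and the length trend removed left 1 member. Leaving out 1 library gave 0 to 5342 genes and 0 to 15 members: 12 without IR 1, 15 without IR 2, and 0 without any other library. In IR_Pra against IR, 1 gene and 0 members were called. DESeq2 called 2872 and 4, library size alone 2 genes, no filter on low counts 2 genes, and the 4 libraries compared 0 genes. Leaving out 1 library gave 0 to 3728 genes and 0 to 11 members, with 8 without IR 1 and 11 without IR 2. In IR_Pra against control, with 0 called, DESeq2 called 72 genes and 1 member. The members' median there, 0.12, lay between -0.032 (without control 1) and 0.18 when 1 library was left out. Library size alone shifted the median of all genes by 0.16 in IR_Pra against IR. The cause of these differences was not tested. Where both groups have 2 animals, leaving 1 out assumes that the other varies like the rest.

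The replicate numbers name separate animals and pair nothing by design: same-numbered libraries correlated at 0.08, -0.09 and -0.11 in their deviations. With the number as a replicate block, 0 genes and 0 members were called in IR against control, and 0 genes in IR_Pra against IR. GPX7 then had a log2 fold change of 2.37 (edgeR adjusted p = 0.0792).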

Other observations

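The enzymes that make superoxide and peroxide, the substrates of the members, were read from a list of 24 genes, of which 20 were tested. None was called by edgeR in any comparison. In IR against control 6 of 20 had an unadjusted p under 0.05, a share equal to that of all genes within rounding (30.0% and 30.2%), so the values below are a description. CYBA, the membrane subunit shared by several NADPH oxidases, had 73.6 and 99.3 CPM in IR_Pra libraries, 167 and 175 CPM in IR libraries, and 90.2 and 65.0 CPM in control libraries (log2 fold change 1.14 in IR over control; edgeR adjusted p = 0.0644). NOX4, an oxidase that releases hydrogen peroxide, had 1.429 and 1.501 CPM in IR_Pra libraries, 1.06 and 1.16 CPM in IR libraries, and 3.71 and 2.33 CPM in control libraries (-1.44; edgeR adjusted p = 0.0902). The macrophage markers were also higher in both IR libraries, and their part in the level of CYBA was not tested.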
